A study of Mus musculus with 6 samples.

Results

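The serpins are a family of proteins named for their serine protease inhibitors, and their genes were followed in healing mouse skin in mice labelled as having beta-catenin knocked down or stabilised. Members were all array probes whose gene symbol was Serpin, a clade letter from a to i and a number, pseudogenes left out, which gave 80 of 45281 probes and 55 of 19057 named genes. Total RNA came from full-thickness wounds of dorsal skin, 8 days after injury, in mice of C57/BL6 background, and was read on 6 Illumina bead arrays. Knockdown mice (2 arrays) carried a floxed Ctnnb1, the beta-catenin gene, with exons 2 to 6 floxed on both alleles, plus a Cre-Esr1 gene, and received tamoxifen. Tamoxifen control mice (2 arrays) carried the same floxed allele without Cre-Esr1 and also received tamoxifen. In both of these groups replicate 1 was aged 5 months and replicate 2 was aged 2 months. The stabilised array (1) came from a mouse aged 2 months with Ctnnb1 floxed at exon 3 on both alleles and treated with an adenovirus carrying Cre. The GFP control array (1) came from a mouse of that genotype and age treated with an adenovirus carrying GFP. No source used here names the promoter behind Cre-Esr1 or the cells reached by the virus.

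A classical serpin offers a protease an exposed loop as bait, and once the loop is cut it traps the enzyme in a dead complex that cannot be released. Serpins of clades A, C, D, E, F and G are mostly secreted and govern blood clotting, clot breakdown, complement and inflammation. Those of clade B stay mainly inside cells, many of them in epidermis and leukocytes, where they inhibit granule proteases and lysosomal cathepsins. A few members no longer inhibit proteases, among them the collagen chaperone Hsp47 (Serpinh1) and pigment epithelium-derived factor (Serpinf1).

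Across the whole array set, 15217 to 16656 probes per array were detected, meaning a deposited detection p under 0.01. All values are the deposited normalized log2 intensities, in which every array has a median of 5.12 and the lowest detected probe reads 5.95 to 6.3. The 4 probes of Ctnnb1 differed by -0.30 to 0.20 log2 between knockdown and tamoxifen control and by -0.32 to 0.25 log2 between stabilised and GFP control. No source used here places these probes inside or outside the floxed exons, so they do not check the labels. Basal keratinocyte markers (7 of 7), fibroblast markers (7 of 7) and 4 of 6 differentiated keratinocyte markers were detected on all 6 arrays, so defining markers of the labelled skin were present. Liver plasma protein genes were below detection on every array for 6 of 7 markers. The knockdown comparison rests on 4 arrays and the stabilised comparison on 2, and their number limits the precision of each value.

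Promoter sequence is shown for some of the serpins whose differences are given below. It is the 250 bases before the transcription start, read 5′ to 3′ on the gene's strand from RefSeq (GRCm38.p6). The letters CTTTGAA or CTTTGAT, the core bound by the TCF/LEF partners of beta-catenin, were searched on both strands. So were TATAAA, the TATA box, and TGANTCA, called the AP-1 letters here. TGANTCA is looser than the usual site of the AP-1 factors, TGACTCA or TGAGTCA. The first sequence is Serpina3b, at chr12:104127746-104127995 on the plus strand, with the TCF/LEF and TATA letters in capitals, 239 and 28 bases before the start.

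Serpina3b: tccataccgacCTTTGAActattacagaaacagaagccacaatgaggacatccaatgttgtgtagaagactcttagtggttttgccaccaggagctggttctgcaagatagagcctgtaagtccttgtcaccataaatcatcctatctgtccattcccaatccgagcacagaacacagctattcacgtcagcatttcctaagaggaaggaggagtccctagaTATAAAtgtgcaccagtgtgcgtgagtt

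Serpinb6e and Serpinb6d are neighbouring genes on chromosome 13 and were detected in the GFP control wound but not in the stabilised wound. Their windows lie at chr13:33843409-33843658 on the minus strand and, for the first of 2 starts of Serpinb6d, chr13:33661155-33661404 on the plus strand. None of the 3 motifs was found in either window. Capitals mark the 3 runs of at least 10 bases that both windows share, the longest of 15 bases.

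Serpinb6e: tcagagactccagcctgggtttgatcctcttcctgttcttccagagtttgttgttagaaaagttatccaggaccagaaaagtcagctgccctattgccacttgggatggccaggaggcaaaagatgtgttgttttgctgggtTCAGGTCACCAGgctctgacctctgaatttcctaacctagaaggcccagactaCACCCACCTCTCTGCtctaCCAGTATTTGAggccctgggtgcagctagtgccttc
Serpinb6d: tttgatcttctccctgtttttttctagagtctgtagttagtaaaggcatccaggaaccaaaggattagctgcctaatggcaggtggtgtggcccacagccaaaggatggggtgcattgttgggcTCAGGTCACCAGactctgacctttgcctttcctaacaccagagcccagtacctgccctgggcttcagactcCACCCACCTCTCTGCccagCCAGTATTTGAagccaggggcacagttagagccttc

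In a pairwise alignment 184 of 250 bases were identical between these windows (73.6%). Serpinb6c, the next gene along, whose window at chr13:33905192-33905441 is on the minus strand, shared 142 identical bases with Serpinb6e and no run of 10. Windows of unrelated serpins give similar figures in such an alignment, with 148 identical bases for Serpinb6e and Serpina3b. Serpinb6c also held none of the 3 motifs.

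Serpinb6c: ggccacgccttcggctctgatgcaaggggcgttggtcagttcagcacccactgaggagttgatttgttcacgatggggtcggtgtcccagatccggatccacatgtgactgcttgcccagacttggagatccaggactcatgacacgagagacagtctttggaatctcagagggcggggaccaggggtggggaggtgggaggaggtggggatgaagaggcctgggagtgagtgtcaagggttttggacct

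Serpinb2 and Serpinb12 lie in the epidermal serpin cluster of chromosome 1 and were lower on both arrays of mice aged 5 months. The windows of these genes are at chr1:107511173-107511422 and chr1:106934199-106934448, both for the first of 2 starts and on the plus strand. Each held a TATA and an AP-1 match, shown in capitals. The matches lay 29 and 94 bases before the start in Serpinb2, and 220 and 45 bases before it in Serpinb12. The AP-1 letters read TGAATCA in Serpinb2 and TGATTCA in Serpinb12, neither of them the usual AP-1 site. Serpinb3a, also lower at 5 months, had the TATA but not the AP-1 letters, and Serpinb11 the AP-1 but not the TATA letters. Serpina12, lower at 5 months too, had neither. The windows of Serpinb3a, Serpinb11 and Serpina12 are not shown.

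Serpinb2: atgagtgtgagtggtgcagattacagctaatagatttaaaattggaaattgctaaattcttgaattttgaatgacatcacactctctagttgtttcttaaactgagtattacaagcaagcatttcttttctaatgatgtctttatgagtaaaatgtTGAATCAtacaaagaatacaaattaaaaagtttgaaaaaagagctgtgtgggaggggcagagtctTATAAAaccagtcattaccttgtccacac
Serpinb12: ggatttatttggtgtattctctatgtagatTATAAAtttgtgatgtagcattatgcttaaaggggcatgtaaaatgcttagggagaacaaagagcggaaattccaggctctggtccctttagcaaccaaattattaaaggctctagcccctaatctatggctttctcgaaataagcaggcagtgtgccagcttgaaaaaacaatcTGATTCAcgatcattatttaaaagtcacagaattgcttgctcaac

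Of the 55 serpin genes, 49 had a promoter in the table. The TCF/LEF letters were in 6 of these 49 (12.2%), against 8.63% of 27025 genes. TATAAA was in 12 (24.5%), against 14.3% of genes, and TGANTCA in 11 (22.4%), against 7.82% of genes. Among serpins detected on at least 1 array, Serpina12 and Serpina3b had the TCF/LEF letters, and Serpinb2, Serpinb8, Serpinb11 and Serpinb12 had the AP-1 letters. A match of letters is a description of the window and not a bound site.

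Most of the family gave no measurable signal in the wounds. Of 55 genes, 13 (23.6%) were detected on all 6 arrays, 5 on some arrays and 37 (67.3%) on none, whereas 45.7% of all 19057 named genes were detected on all 6 and 44.4% on none. The 52 probes of the 37 undetected genes read 4.45 to 6.06 log2. Clade B, with 26 genes, had 7 detected on all arrays, 3 on some and 16 on none. Clade A, with 20 genes, had 3, 2 and 15. Clades F (2 genes), G (1 gene) and H (1 gene) had 1 gene each that was detected throughout. Clades C, D, E and I, with 5 genes between them, had no detected gene.

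**Figure D1:**
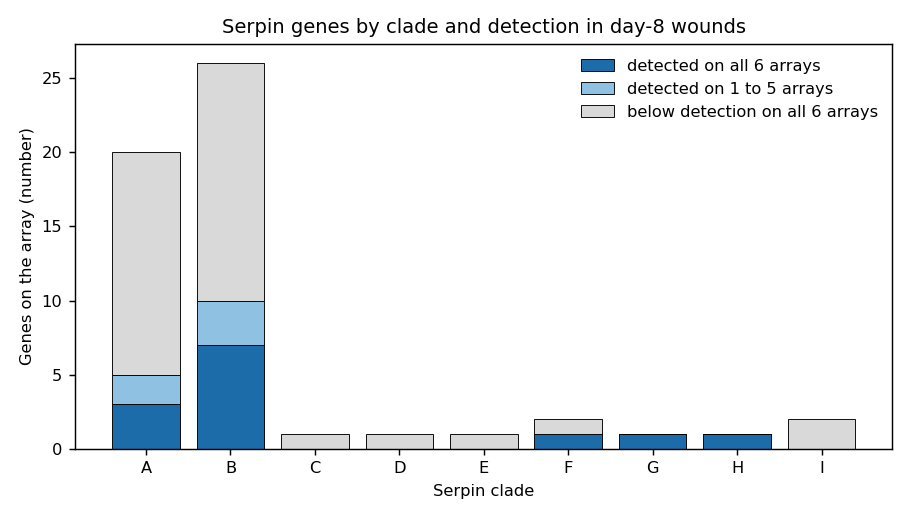
Number of serpin genes on the array in each clade (bars), split by how many of the 6 arrays detected them. Clade B had 10 of 26 genes detected on at least 1 array and clade A 5 of 20, and clades C, D, E and I had none.

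The undetected members fall into known groups. A list of 11 liver-made plasma serpins was below detection on all 6 arrays. It held the alpha-1-antitrypsin genes Serpina1a, Serpina1b, Serpina1c, Serpina1d and Serpina1e, the hormone carriers Serpina6 and Serpina7, and the protein Z-dependent inhibitor Serpina10. Antithrombin (Serpinc1), heparin cofactor II (Serpind1) and antiplasmin (Serpinf2) made up the rest. Serping1 and Serpina3n, detected on all 6 arrays, were not on that list. Serpinc1 read 4.82 and 4.84 in knockdown, 4.71 and 5.01 in tamoxifen control, 4.82 in stabilised and 5.38 in GFP control wounds. Serpind1 stayed between 4.65 and 4.85 log2 on the 6 arrays. In clade E, Serpine3 read 4.85 and 4.84 in knockdown, 4.99 and 4.84 in tamoxifen control, 4.75 in stabilised and 4.6 in GFP control wounds. The neuronal serpin Serpini1 read 4.61 to 5.03 log2, and its clade partner Serpini2 was also below detection. The other clade A members without a signal were Serpina1f, Serpina3a, Serpina3i, Serpina3j, Serpina5, Serpina11 and Serpina16.

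In clade B, undetected members included the epidermal serpins Serpinb3c, Serpinb3d, Serpinb5 (maspin), Serpinb7 and Serpinb13. They also included the granzyme B inhibitor Serpinb9 with Serpinb9b, Serpinb9c, Serpinb9d, Serpinb9e, Serpinb9f and Serpinb9g, and Serpinb1b, Serpinb1c, Serpinb6b and Serpinb10. Each gene was called from probes that may fit it poorly, so below detection does not show that its RNA was absent.

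Serpins of the stroma were among the strongest signals and differed little within either comparison. Serpinh1, which encodes Hsp47, the chaperone that holds procollagen in the endoplasmic reticulum until it has folded, read 15.47 and 15.11 log2 in knockdown, 15.24 and 14.95 in tamoxifen control, 15.29 in stabilised and 15.17 in GFP control wounds. The knockdown and tamoxifen control values overlapped, with a difference of 0.19 ± 0.21 log2 (SE). The other Serpinh1 probe gave 0.24 log2 for knockdown and 0.20 log2 for stabilised minus GFP control. Its range over the 6 arrays was 1.44 log2, against 0.52 log2 for the probe shown. Serpinf1, whose product pigment epithelium-derived factor restrains blood vessel growth, read 15.17 and 14.75 in knockdown, 14.92 and 14.80 in tamoxifen control, 14.98 in stabilised and 14.74 in GFP control wounds. Its groups overlapped too, and its 2 probes gave 0.23 and -0.22 log2 for stabilised minus GFP control. Serping1 encodes the C1 inhibitor, which blocks the first complement proteases and plasma kallikrein. It read 13.09 and 12.74 in knockdown, against 12.59 and 12.56 in tamoxifen control wounds. Both knockdown arrays were above both controls, by 0.34 ± 0.18 log2 (SE), with an unadjusted p of 0.13 and an adjusted p of 0.976 in limma. It read 13.31 in the stabilised and 13.03 in the GFP control wound.

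Clade A gave the family's largest knockdown difference. Serpina3b, a mouse relative of the antichymotrypsin gene, read 6.61 and 9.60 log2 in knockdown wounds, against 10.87 and 10.98 log2 in tamoxifen control wounds. Both knockdown arrays were below both controls, and the knockdown pair lay far apart, at 8.11 ± 2.12, against 10.92 ± 0.08 in tamoxifen control (SD, n = 2 each). The log2 fold change was -2.82 ± 0.99 (SE), a 7.04-fold lower level, with an unadjusted p of 0.0399 and an adjusted p of 0.976 in limma, so it did not pass the threshold. The difference was -4.25 log2 between the arrays aged 5 months and -1.38 log2 between those aged 2 months, and leaving out 1 array at a time gave -4.31 to -1.32, the smallest without knockdown replicate 1. In the adenovirus pair Serpina3b was below detection in the stabilised wound at 5.24 and read 9.18 in the GFP control wound, at least 7.39-fold lower. With 1 array per group that difference has no replicate check.

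Markers of skeletal muscle and of basal keratinocytes also differed between groups, though not array by array with Serpina3b. The 7 skeletal muscle markers were all lower in knockdown, with summed linear levels (normalized intensities with the log undone) of 6237 and 35710 in knockdown, 87270 and 32870 in tamoxifen control, 376 in stabilised and 5233 in GFP control wounds. In the stabilised wound 5 of the 7 (Acta1, Actn3, Ckm, Myh4 and Tnnt3) were below detection. The 7 basal keratinocyte markers were likewise all lower in knockdown, with sums of 78560 and 97840 in knockdown, 119800 and 142700 in tamoxifen control, 121400 in stabilised and 149600 in GFP control wounds. Their part in the result was not tested, and in whole wounds fewer cells of a type and less RNA per cell cannot be told apart.

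The other clade A members differed less. Serpina3n, a mouse acute-phase serpin that inhibits granzyme B, read 10.01 and 10.13 in knockdown, 9.59 and 9.92 in tamoxifen control, 10.84 in stabilised and 11.33 in GFP control wounds. Both knockdown arrays were above both controls, by 0.32 log2 (unadjusted p = 0.148, adjusted p = 0.976 in limma), while the stabilised wound was 0.49 log2 below its control on the array. Serpina12 encodes vaspin, an inhibitor of the skin kallikrein Klk7, and had the highest mean of the clade. It read 12.77 and 13.07 in knockdown, 12.29 and 13.13 in tamoxifen control, 12.61 in stabilised and 12.45 in GFP control wounds, with overlapping groups. Serpina9, known in human germinal centre B cells, read 8.07 and 8.72 in knockdown, 8.27 and 8.90 in tamoxifen control, 8.75 in stabilised and 8.5 in GFP control wounds. Serpina3f, a mouse Serpina3 paralogue, was detected on 3 arrays only and read 6.18 and 5.82 in knockdown, 5.41 and 7.52 in tamoxifen control, 6.12 in stabilised and 6.38 in GFP control wounds. The 3 arrays were knockdown replicate 1, tamoxifen control replicate 2 and the GFP control, so Serpina3f was below detection in the stabilised wound. The Serpina3 genes arose by recent duplication, and which copies a probe also binds is uncertain.

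Within clade B the Serpinb6 group held the most uneven pattern. Serpinb6e read 7.36 and 9.29 log2 in knockdown wounds, against 9.37 and 9.59 log2 in tamoxifen control wounds, and was below detection at 4.81 in the stabilised wound, against 10.89 in the GFP control wound. Knockdown lay below control without overlap, at -1.15 ± 0.65 log2 (SE), with an unadjusted p of 0.142 and an adjusted p of 0.976 in limma, and the difference was -0.19 log2 without knockdown replicate 1. The stabilised wound was at least 24.0-fold lower than its control. Serpinb6d read 6.33 and 6.38 in knockdown, 5.73 and 6.48 in tamoxifen control, 4.88 (below detection) in stabilised and 7.58 in GFP control wounds, at least 2.44-fold lower in the stabilised wound. Like Serpinb6e, the skeletal muscle and basal keratinocyte marker sums given above were lower in the stabilised wound than in its control. Counted by gene, all 5 skeletal muscle markers compared were lower. Of the 7 basal keratinocyte markers, 3 were higher and 4 lower, with a median of -0.04 log2. The part of these markers in the result was not tested.

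The 2 neighbours of that pair on chromosome 13 did not share the pattern. Serpinb6c read 9.56 and 10.26 in knockdown, 10.12 and 10.74 in tamoxifen control, 11.11 in stabilised and 11.03 in GFP control wounds. Serpinb6a is the mouse counterpart of human SERPINB6, a broad inhibitor of intracellular and granule proteases, and had the highest mean of clade B. It read 13.64 and 13.74 in knockdown, 14.10 and 13.53 in tamoxifen control, 14.07 in stabilised and 13.08 in GFP control wounds, 0.99 log2 higher in the stabilised wound. Only 1 of its 4 probes was detected. As in the Serpina3 group, which other copies the probes of these genes also bind was not checked.

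Epidermal serpins with signal were Serpinb2, Serpinb12 and Serpinb3a. Serpinb2, plasminogen activator inhibitor type 2, which blocks urokinase, read 8.55 and 9.60 in knockdown, 9.15 and 9.79 in tamoxifen control, 9.67 in stabilised and 10.45 in GFP control wounds. Serpinb12, an inhibitor of trypsin-like proteases, read 12.10 and 13.31 in knockdown, 12.49 and 13.23 in tamoxifen control, 12.82 in stabilised and 12.23 in GFP control wounds. Its 2 probes gave 0.59 and 1.2 log2 for stabilised minus GFP control. Serpinb3a is a relative of the human squamous cell carcinoma antigens, which inhibit lysosomal cathepsins. It read 6.93 and 9.74 in knockdown, 8.68 and 10.30 in tamoxifen control, 8.55 in stabilised and 8.69 in GFP control wounds. Knockdown replicate 1 was the lowest of its 6 arrays, and the difference of -1.16 ± 1.07 log2 (SE; unadjusted p = 0.333, adjusted p = 0.976 in limma) was 0.24 without that array. Its other detected probe gave -0.08 log2 for knockdown and 0.17 log2 for stabilised minus GFP control. Of these 3 genes, none separated the knockdown from the tamoxifen control arrays.

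The remaining clade B members were close between groups. Serpinb1a, a mouse inhibitor of neutrophil elastase, read 7.03 and 7.30 in knockdown, 7.84 and 7.15 in tamoxifen control, 7.15 in stabilised and 7.48 in GFP control wounds. Serpinb11 read 9.90 and 10.61 in knockdown, 9.70 and 10.81 in tamoxifen control, 10.51 in stabilised and 10.40 in GFP control wounds. Serpinb8, an inhibitor of furin in vitro, was detected on 3 arrays, at 5.96 or lower in knockdown, at most 6.16 in tamoxifen control, 6.37 in stabilised and 6.54 in GFP control wounds, and was left out of the knockdown test by its low detection.

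**Figure D2:**
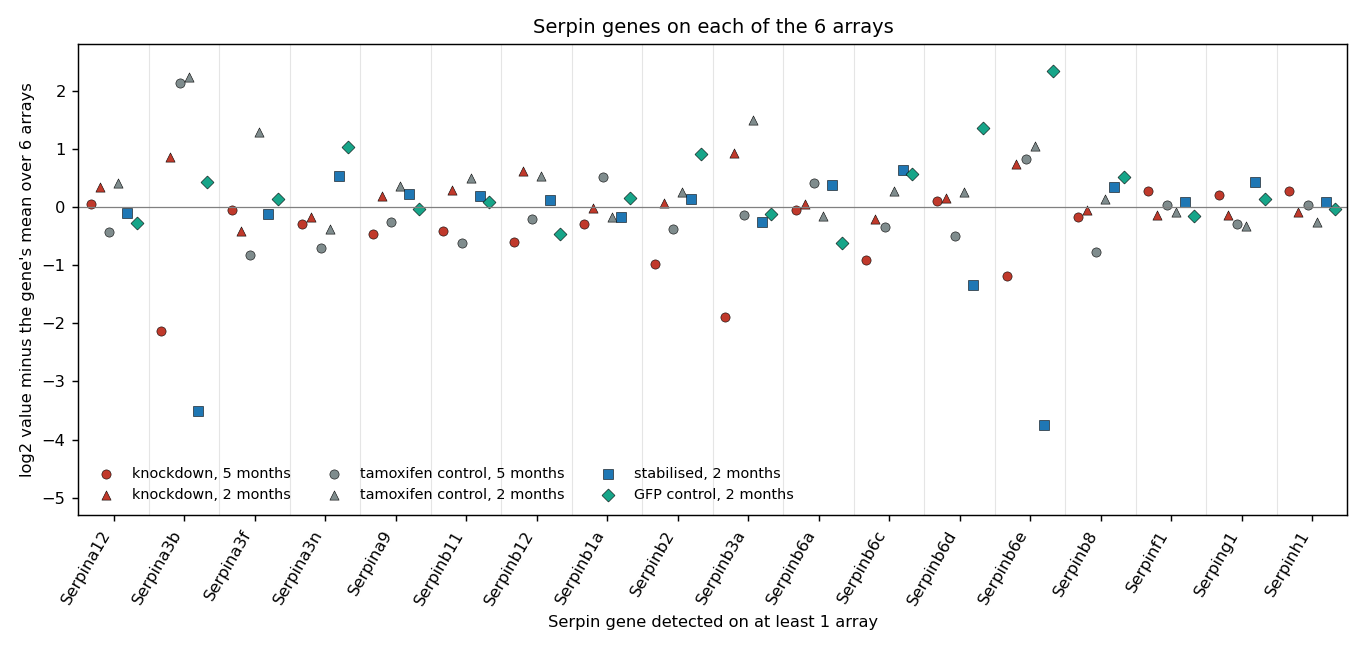
Log2 value of each of the 18 detected serpin genes on the 6 arrays, minus that gene's own mean, with colour for group and round points for mice aged 5 months. Serpina3b and Serpinb6e have their lowest point in the stabilised wound, at 5.24 and 4.81 log2 before centring, and Serpinb3a, Serpina3b and Serpinb6e have their second lowest or lowest in knockdown replicate 1.

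Taken over the family, the knockdown comparison asked how serpin levels differ between wounds labelled as beta-catenin knockdown and their tamoxifen controls. Of 17 serpin genes tested, 0 had an adjusted p under 0.05 in limma, as did 0.0% of all 9851 genes tested, and the serpins' adjusted p-values ran from 0.976 to 1. At an unadjusted p under 0.05 there was 1 of 17, Serpina3b, against 4.41% of all genes. At least 2-fold lower were 3 of 17 (Serpina3b, Serpinb3a and Serpinb6e), against 2.09% of all genes, and 0 serpins were at least 2-fold higher, against 0.66%. Groups did not overlap for 4 of 17 serpins (Serpina3n and Serping1, which were higher, and Serpina3b and Serpinb6e, which were lower), against 33.1% of all genes. The median difference was -0.15 log2 over the 17 serpins, beside 0.01 over all genes, and 7 were higher and 10 lower. With 2 arrays against 2, an exact permutation test cannot give a two-sided p below 0.333.

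For stabilised against GFP control, 3 of 18 serpins were at least 2-fold lower (Serpina3b, Serpinb6d and Serpinb6e), beside 4.89% of all 9991 genes compared, and 0 were at least 2-fold higher, beside 2.76%. All 3 were below detection in the stabilised wound and entered the comparison through the GFP control array alone, where they were high, so nothing about the family is read from this count. Of the 14 serpins detected on both arrays, 0 were at least 2-fold apart. The median difference was -0.03 log2, beside 0.05 over all genes, with 9 serpins higher and 9 lower. Each group has 1 array, so these are differences between 2 wounds.

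**Figure D3:**
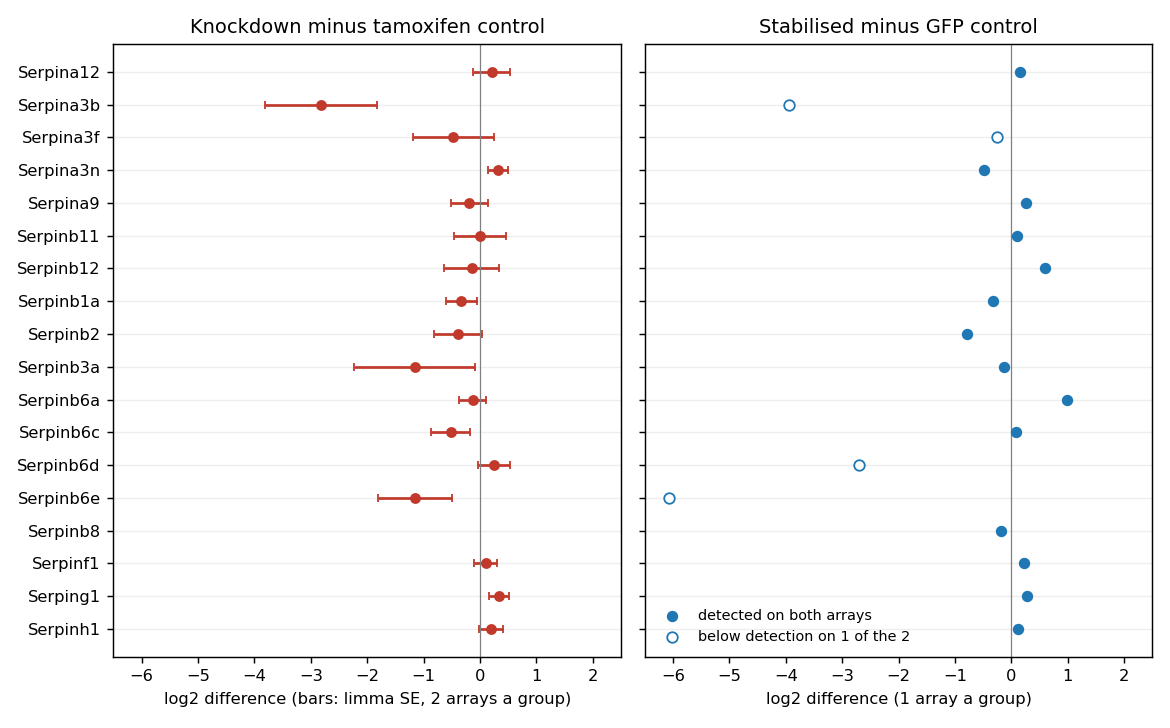
Log2 difference of each detected serpin for knockdown minus tamoxifen control (left, bars are limma standard errors, 2 arrays per group) and stabilised minus GFP control (right, 1 array per group). Open circles were below detection in the stabilised wound and have only a bound. The bounds are at least 7.39-fold lower for Serpina3b, 2.44-fold for Serpinb6d, 24.0-fold for Serpinb6e and 1.06-fold for Serpina3f. Serpina3b is also the lowest on the left, at -2.82.

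The 2 experiments were then set against each other, since the labels describe a knockdown of beta-catenin in one and its stabilisation in the other. In the 17 serpins with both differences, counted by sign whatever the size, 5 were higher in both (Serpina12, Serpinb11, Serpinf1, Serping1 and Serpinh1, with Serpinb11 at 0.00 log2 for knockdown after rounding) and 6 were lower in both (Serpina3b, Serpina3f, Serpinb1a, Serpinb2, Serpinb3a and Serpinb6e). Serpina3n and Serpinb6d were higher in knockdown and lower in stabilised wounds, and Serpina9, Serpinb12, Serpinb6a and Serpinb6c went the other way. The stabilised difference minus the knockdown difference had an adjusted p under 0.05 in limma for 0 of 18 serpins and 0.00989% of 10112 genes. At an unadjusted p under 0.05 there were 3 of 18, against 5.2% of all genes. They were Serpinb6a at 1.12 ± 0.42 log2 (SE, unadjusted p = 0.0476, adjusted p = 0.937 in limma), Serpinb6d and Serpinb6e. The stabilised values of Serpinb6d and Serpinb6e are not above background, so for them the contrast has no measured size and no value is given. This contrast takes the lone adenovirus arrays to vary like the tamoxifen arrays. Sex, floxed allele and Cre delivery differ between the experiments as well. The tamoxifen arrays also mix mice aged 5 and 2 months, while both adenovirus mice were aged 2 months.

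The detected serpins spread more widely over the arrays than the median gene did, also between replicates. The range over the 6 arrays had a median of 1.26 log2 for the 18 detected serpins and 0.62 log2 for 10112 genes. The larger gap between replicates of a tamoxifen group had a median of 0.74 log2, against 0.32 log2 for all genes. The size of the knockdown difference, whatever its sign, had a median of 0.32 log2, against 0.15 log2 for all genes.

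In both tamoxifen groups replicate 1 was the older mouse, so the 4 arrays were also compared by age, 5 months against 2 months, a comparison added after the values had been seen. Age matches replicate number here, and the 2 cannot be told apart. Serpinb3a averaged 7.81 ± 1.24 log2 at 5 months and 10.02 ± 0.40 at 2 months (SD, n = 2 each), a difference of -2.21 ± 0.64 (SE; unadjusted p = 0.0219, adjusted p = 0.603 in limma). Serpinb12 averaged 12.29 ± 0.27 at 5 months and 13.27 ± 0.06 at 2 months, a difference of -0.98 (unadjusted p = 0.00456 in limma). Serpinb11 averaged 9.80 ± 0.15 at 5 months and 10.71 ± 0.14 at 2 months, a difference of -0.91 (unadjusted p = 0.00354 in limma). Both older arrays were below both younger ones for all 3 genes. The 2 adenovirus arrays, also from mice aged 2 months, were not in this comparison. In stabilised and GFP control wounds Serpinb3a read 8.55 and 8.69, Serpinb12 12.82 and 12.23, and Serpinb11 10.51 and 10.40.

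Serpinb2 (-0.85 log2), Serpina9 (-0.64) and Serpina12 (-0.57) also had an unadjusted p under 0.05, making 6 of 17 serpins, all lower at 5 months, against 3.94% of all 9851 genes that were lower at that cut. None passed the adjusted threshold, where 0.0% of all genes did, and the serpins' smallest adjusted p was 0.6 in limma. With Serpinb6c (-0.66) and Serpinb6d (-0.40), 8 of 17 serpins were lower on both older arrays without overlap, against 15.6% of all genes. Serpinf1 (0.27) and Serpinh1 (0.33) were higher on both older arrays without overlap, 2 of 17, against 25.9% of all genes. The median age difference was -0.64 log2 over the serpins and 0.05 over all genes. In clade A 5 of 5 tested genes were lower at 5 months and in clade B 7 of 9, while the single genes of clades F, G and H were each higher. Serpina3b (-1.55) and Serpinb6e (-1.07) were lower at 5 months mainly through the knockdown pair, with -2.99 and -1.92 log2 in knockdown and -0.11 and -0.22 in tamoxifen control.

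Cell type markers differed by age as well. All 5 differentiated keratinocyte markers tested were lower at 5 months, with a median of -0.62 log2, and their summed linear levels were 144900 and 144800 at 5 months and 156400 and 168100 at 2 months. The 5 neutrophil markers tested were also all lower at 5 months, with a median of -1.86 log2 and sums of 6790 and 15290 at 5 months, against 67220 and 29200 at 2 months. The 7 basal keratinocyte markers were all lower at 5 months, with a median of -0.63 log2 and sums of 78560 and 119800 at 5 months, against 97840 and 142700 at 2 months. The 7 fibroblast markers and the 7 endothelial markers were all higher at 5 months, with medians of 0.30 and 0.43 log2. Their part in the result was not tested.

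**Figure D4:**
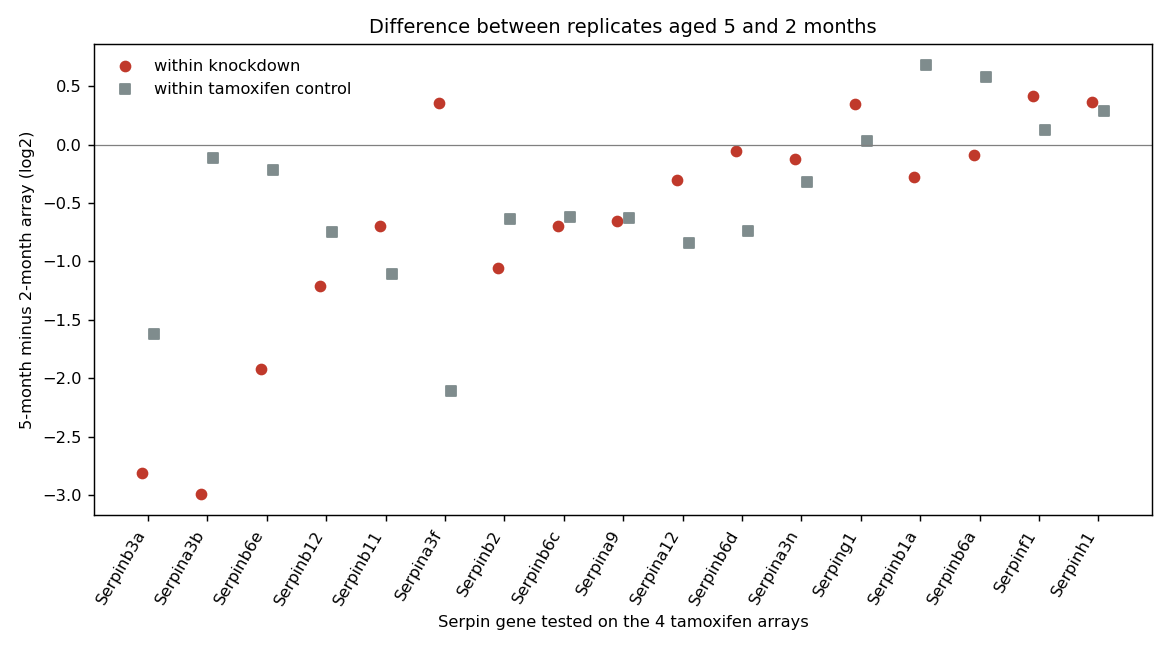
Log2 difference between the replicate aged 5 months and the replicate aged 2 months, within knockdown (circles) and within tamoxifen control (squares), for the 17 tested serpins ordered by their mean. Both points lie below 0 for 11 genes, among them Serpinb3a, Serpinb12, Serpinb11, Serpinb2 and Serpina9, and above 0 for Serping1, Serpinf1 and Serpinh1.

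The proteases that serpins restrain were counted from lists. Of 9 epidermal serine proteases with signal, the kallikrein-related peptidases Klk5, Klk6, Klk7, Klk8, Klk10 and Klk13 with Prss8, St14 and Tmprss4, 0 had an adjusted p under 0.05 for knockdown, 5 were higher and 4 lower, and the median was 0.03 log2. By age all 9 were lower on both 5-month arrays than on both 2-month arrays, with a median of -0.66 log2, beside 15.6% of all genes and a median of 0.05. Klk13 had the smallest unadjusted p (0.000332 in limma), at 9.59 and 9.46 log2 at 5 months in knockdown and tamoxifen control, against 11.17 and 10.96 at 2 months, and the smallest adjusted p of any gene was 0.6. In the adenovirus pair 8 of the 9 were lower in the stabilised wound, with a median of -0.59 log2, beside 0.05 for all genes.

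Of the 7 measured genes of clot formation and breakdown, 6 were higher and 1 lower in knockdown, with a median of 0.16 log2, and 0 passed the adjusted threshold. F10, encoding coagulation factor X, read 8.45 and 9.35 in knockdown, 7.73 and 7.75 in tamoxifen control, 9.07 in stabilised and 6.49 in GFP control wounds (unadjusted p = 0.0191, adjusted p = 0.976 in limma for knockdown). Plaur, the urokinase receptor, differed by 1.12 log2 (unadjusted p = 0.0774 in limma). Urokinase itself, Plau, differed by 0.04 log2 for knockdown, and by 1.13 log2 for stabilised against GFP control, where it read 12.27 and 11.14. The transcripts of thrombin (F2) and plasminogen (Plg), which are liver-made, and of Procr were below detection.

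Of complement and contact proteases, 2 of 7 had signal. Masp1, a lectin pathway protease that the C1 inhibitor blocks, read 11.11 and 10.84 in knockdown, 11.74 and 11.92 in tamoxifen control, 9.68 in stabilised and 11.87 in GFP control wounds (-0.86 log2 for knockdown, unadjusted p = 0.00583, adjusted p = 0.976 in limma). C1s1, encoding complement C1s, differed by 0.31 log2 and the other 5 genes were below detection. The neutrophil elastase gene Elane, with Ctsg, Prtn3, Gzmb and Gzmk, was below detection on all arrays, and the 3 mast cell protease genes tested were lower in knockdown (median -0.30 log2), led by Mcpt4 at -0.92 (unadjusted p = 0.105 in limma). The 6 mast cell markers tested, which include these 3 genes, were all lower in knockdown as well (median -0.37 log2), with sums of 1759 and 1047 in knockdown and 1384 and 2313 in tamoxifen control wounds, and their part in the result was not tested.

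All 7 cysteine proteases that clade B serpins can inhibit were higher in knockdown, with a median of 0.15 log2, and all 7 were higher in the stabilised wound, with a median of 0.42 log2, while 0 passed the adjusted threshold. Ctsl, the gene of cathepsin L, read 7.37 and 8.09 in knockdown, 7.07 and 6.54 in tamoxifen control, 10.09 in stabilised and 8.87 in GFP control wounds (unadjusted p = 0.041, adjusted p = 0.976 in limma). The 6 macrophage markers compared were also all higher in the stabilised wound (median 0.83 log2), and their part in the result was not tested. Vldlr, an endocytic receptor for serpin-protease complexes, read 9.89 and 9.70 in knockdown and 9.21 and 9.11 in tamoxifen control wounds, a difference of 0.64 log2 (unadjusted p = 0.0121, adjusted p = 0.976 in limma). It read 10.84 in the stabilised wound, 0.83 log2 above its GFP control.

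Genes of collagen and of its folding, the setting in which Hsp47 works, had a median knockdown difference close to that of Serpinh1. Of 15 genes measured, 14 were higher and 1 lower in knockdown, with a median of 0.15 log2 beside 0.19 for Serpinh1, 0 passed the adjusted threshold and 0 had an unadjusted p under 0.05. The smallest unadjusted p was that of Plod2, a lysyl hydroxylase, at 0.59 log2 (unadjusted p = 0.12, adjusted p = 0.976 in limma). Plod2 was 1.04 log2 higher in the stabilised wound. By age 14 of the 15 were higher at 5 months, with a median of 0.29 log2, beside 0.33 log2 for Serpinh1.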

How the data were processed

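Per the labels, total RNA was isolated with Qiagen RNeasy and labelled with an Ambion Illumina TotalPrep kit. The deposited log2 table has the same quantiles on each array and differs by at most 0.0874 log2 from running neqc of limma on the deposited raw intensity table. Per the file headers, that table holds raw signal intensity and a detection p-value per probe. The submitters' processing notes name R 2.14 alone. Scanner software, normalization and build were not given in the sources used here. Raw array medians were 136 to 152, and 2 stray lines (0.00442%) were dropped.

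Probes took their symbol from the platform annotation (34885 with 1 symbol, 18 with several and 10378 with none), and a gene was represented by its probe of highest mean over 6 arrays. A gene was detected at a detection p under 0.01 and was tested when detected on at least 2 of the 4 tamoxifen arrays, or compared when detected on 1 of the 2 adenovirus arrays. For the contrast of both experiments, detection on 2 of 6 arrays was required. Tests were limma (3.58.1, R 4.3.3) group means with eBayes, two-sided and Benjamini-Hochberg adjusted over all genes tested, with 2 residual degrees of freedom. The labels call the samples biological replicates. Below-detection folds are bounds against the higher of the lowest detected signal of the array and the gene's own value. On simulated data with 9851 genes for the knockdown comparison, 50 genes were changed at each size, and limma recovered 4% of the 2-fold changes, 72% at 4-fold, 88% at 8-fold and 96% at 16-fold, with 5 false calls. No 2 arrays had more than 2 raw signals in common.

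Values on all 6 arrays are given for the highest serpin of each clade, the 10 largest differences in either comparison and every serpin with an unadjusted p under 0.05, and Serpinb8 was added. In other lists up to 3 members with the smallest p are named, and a few others, with Plau, after their values were seen. The members, lists and tests were chosen with earlier results of these data known. Alternatives covered normalization, background correction, detection filters, probe choice, the variance model, a replicate block and leaving out each array.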

Additional observations from a re-analysis of the deposited data

How the results depend on the processing

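The count of serpins past an adjusted p of 0.05 stayed at 0 under each alternative run, for knockdown, for the difference between the experiments and for the age comparison, also on leaving out each tamoxifen array. With a replicate block, 0 serpins passed (smallest adjusted p 0.655 in limma), 3 had an unadjusted p under 0.05, and 746 of all genes did, against 434 without the block. The replicates share only a number and an age. Over the 9851 genes tested, the replicate 1 minus replicate 2 difference in knockdown had a correlation of 0.126 with that in tamoxifen control. The count of serpins at least 2-fold apart for knockdown, 3 as deposited, was 1 (Serpina3b) with normexp and quantile normalization, 1 with array medians subtracted, and 1 to 4 on leaving out 1 array (1, Serpina3b, without knockdown replicate 1). The cause was not tested. The adenovirus count of 3 was 0 when detection on both arrays was required, because the 3 genes were below detection on the stabilised array. The median age difference was -0.01 with no detection filter, -0.48 with every probe on its own, and -0.73 to -0.41 on leaving out 1 array, and 16 of 55 serpins were lower on both older arrays with no filter. The mean of all probes turned Serpinb6a to 0.04 for knockdown and -0.01 for age, most of its probes being below detection.

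Leaving out 1 tamoxifen array turned the sign of several single genes, and the median knockdown difference ran from -0.50 to 0.14. For knockdown the ranges were -0.21 to 0.63 for Serpina12, -1.52 to 0.59 for Serpina3f, -0.51 to 0.14 for Serpina9, -0.55 to 0.56 for Serpinb11, -0.76 to 0.45 for Serpinb12, -0.67 to 0.01 for Serpinb1a, -0.92 to 0.14 for Serpinb2, -2.56 to 0.24 for Serpinb3a, -0.41 to 0.16 for Serpinb6a, -0.12 to 0.63 for Serpinb6d and -0.11 to 0.30 for Serpinf1. For age they were -3.68 to 0.57 for Serpina3b, -0.20 to 0.61 for Serpinb1a and -0.06 to 0.44 for Serping1. Of the serpins with an unadjusted p under 0.05 by age, none changed sign. Signal over background limits Serpina3f, Serpinb6d and Serpinb8, which were below detection on some arrays.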
